A study of Homo sapiens with 6 samples.

Results

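The enzymes described here are 9 nuclear-encoded enzymes or enzyme subunits of the tricarboxylic acid (TCA) cycle: CS, IDH2, IDH3A, OGDH, SUCLG1, SUCLG2, SUCLA2, FH and MDH2. They were chosen by name, with no threshold on their measured values but with earlier results of these data known, and all 9 named genes were found among the 19491 genes listed. Their mRNA levels were measured by RNA-sequencing in PC-3, an established prostate cancer cell line kept in medium with fetal bovine serum and pyruvate. Cells were treated for 48 h with 1 mM GPNA (L-gamma-glutamyl-p-nitroanilide) or 10 mM BenSer (O-benzyl-serine), both used as inhibitors of the glutamine transporter ASCT2, or were labelled as having no treatment. The methods give water as the solvent of both compounds, with vehicle in the control wells, and the 2 compounds were used at different doses. All groups were of this 1 cell line with 2 labelled libraries each. The methods speak of more replicates per group and of repeated experiments, but do not say whether the labelled libraries came from separate cultures, and value columns that match no label were not analysed here.

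The TCA cycle runs in the mitochondrial matrix. Citrate synthase joins acetyl-CoA from pyruvate or fatty acids to oxaloacetate, and the following steps release carbon dioxide, load electrons onto NADH and FADH2 for respiration, and rebuild oxaloacetate. Glutamine feeds the cycle as glutamate and then 2-oxoglutarate, which is why a block of glutamine uptake raises the question of how the mRNAs of these enzymes respond. In prostate epithelium the early part of the cycle is known for being held back so that citrate can be secreted, and cancer cells oxidise it again.

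The values are reads of a gene per 1000000 reads of the library (CPM). Totals were 23077986 to 32178154 reads per library, of which 51.6% to 52.7% fell on listed genes. Within each group, reads of libraries 1 and 2 spread only slightly wider than sampling gives (chi-square per degree of freedom 1.05 to 1.06), so both were merged and counted as 1 sample per group. With the libraries so counted, no treatment effect was tested. Differences are given as log2(CPM + 1) of a treatment minus that of its reference, a scale that understates folds of genes with low CPM, with 95% intervals from the merged reads that cover counting error only. A gene is called lower or higher where that interval excludes 0. CPM is a share of the RNA of a culture, so less mRNA per cell and a larger amount of other RNA cannot be told apart. EPCAM, KRT8, KRT18 and CDH1, which mark epithelial cells, stood at 87.3 to 289 CPM in the control.

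All 9 enzymes were lower with BenSer than in the control, by 13.7% (SUCLA2) to 30.1% (CS) in CPM, and 0 were higher (18.2% of all genes tested were). Of the 18976 genes tested in this comparison, 25.8% were lower by the same rule, and 41.0% of the 7961 genes with a mean of at least 10 CPM. With GPNA 6 of the 9 were lower, 0 were higher (9.78% of all genes tested were), and the intervals of IDH2, SUCLG2 and SUCLA2 included 0. The background for GPNA was 20.1% of the 18828 genes tested and 37.5% of the 7905 genes with a mean of at least 10 CPM. No enzyme reached a 1.5-fold difference in either comparison.

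The marker genes also differed between groups. Summed over the 4 epithelial markers, libraries held 578 to 588 CPM in the control, 534 CPM in both with GPNA, and 585 to 592 CPM with BenSer. With BenSer CDH1 differed by 0.49, KRT18 by -0.24 and KRT8 by -0.07, and the interval of EPCAM included 0 (0.01). With GPNA KRT8 differed by -0.20, KRT18 by -0.15, EPCAM by -0.08 and CDH1 by 0.08. The last 2 intervals included 0 when a library was left out, EPCAM without library 1 of GPNA (-0.07) and CDH1 without library 2 of GPNA (0.07) or library 1 of the control (0.05). Of the genes listed as markers of other cell types, 2 had rows, VIM at 187 CPM and COL1A1 at 5.57 CPM in the control. A level in this 1 cell line does not by itself mean that other cells were present. VIM, an intermediate filament gene of mesenchymal cells, differed by -0.38 with BenSer and by -0.03 with GPNA, where the interval included 0. COL1A1, a collagen gene of fibroblasts, differed by -0.48 with GPNA and by -0.27 with BenSer, the latter with an interval that included 0 without library 1 of BenSer (-0.11) or library 1 of the control (-0.15). The part of these marker differences in those of the enzymes was not tested.

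The promoters of CS and FH, which had the largest differences with BenSer, and of SUCLA2, which had the smallest, are shown so that the start regions of these genes can be compared. They are RefSeq sequences of GRCh38.p14, 300 bases from 250 before to 50 after the start of the gene, written 5′ to 3′ on the gene's strand, for chr12:56300281-56300580 (CS, minus strand), chr1:241519706-241520005 (FH, minus strand) and chr13:48001224-48001523 (SUCLA2, minus strand). Capitals mark matches, on either strand, to the GC box GGGCGG and the CCAAT box, and in SUCLA2 also to CGCNTGCGC, an NRF1-type site.
CS: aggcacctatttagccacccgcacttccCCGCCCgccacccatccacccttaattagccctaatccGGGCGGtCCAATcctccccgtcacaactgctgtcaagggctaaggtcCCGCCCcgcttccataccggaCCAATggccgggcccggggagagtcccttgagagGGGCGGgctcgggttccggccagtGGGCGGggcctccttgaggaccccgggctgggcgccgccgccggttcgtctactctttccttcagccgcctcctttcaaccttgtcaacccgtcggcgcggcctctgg
FH: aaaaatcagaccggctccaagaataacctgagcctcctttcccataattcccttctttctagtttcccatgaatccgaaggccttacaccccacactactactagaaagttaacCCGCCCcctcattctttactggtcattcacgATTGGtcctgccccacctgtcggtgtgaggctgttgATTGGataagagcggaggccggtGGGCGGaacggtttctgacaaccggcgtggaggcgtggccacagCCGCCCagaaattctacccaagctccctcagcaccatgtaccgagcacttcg
SUCLA2: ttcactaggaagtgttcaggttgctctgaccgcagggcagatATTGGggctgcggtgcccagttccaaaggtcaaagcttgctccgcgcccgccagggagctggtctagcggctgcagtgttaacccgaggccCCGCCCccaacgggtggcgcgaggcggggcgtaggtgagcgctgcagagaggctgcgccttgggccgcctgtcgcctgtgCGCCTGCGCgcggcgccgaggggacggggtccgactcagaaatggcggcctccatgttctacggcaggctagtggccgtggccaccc
The window of CS held 5 GC boxes and 2 CCAAT boxes, and that of FH held 3 and 2. SUCLA2 held 1 of each and 1 match to the NRF1 site. The matches did not overlap one another in these 3 windows. Of the windows not shown, IDH3A held 3 GC boxes, SUCLG2 held 1, and IDH2, SUCLG1 and MDH2 held 0. Whether motif counts go with the BenSer differences was not tested.

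RefSeq promoter windows were found for 8 of the 9 enzymes, all but OGDH. Their starts were not checked against the gene positions given below. The IDH2 window (48.3% GC, no motif match) may lie inside the gene, so its letters may not be those of its main promoter. Letters of a GC box stood in 5 of the 8 windows (CS, IDH3A, SUCLG2, SUCLA2 and FH), against 44.6% of all 27305 promoters of the same length. A CCAAT box stood in 4 (CS, SUCLG1, SUCLA2 and FH), against 35.7%. The NRF1 site stood in IDH3A and SUCLA2, against 8.05% of all promoters, and the site CCGGAAG, bound by GABP, stood in MDH2 alone with 2 matches, against 10.7%. SUCLG2 held the YY1 site AAGATGGCG, which 1.85% of all promoters hold. None of the 8 windows held the E-box CACGTG (7.43% of all promoters), the ATF4-type element TGATGNAA (3.67%) or the E2F-type site TTTNGCGC (1.83%), which says only that these letters are not in these windows. The motifs were searched on both strands and were chosen after the expression values had been seen. The GC content of the 8 windows had a median of 67.0%, against 58.3% over all promoters.

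CS encodes citrate synthase, which opens the cycle. The gene lies on chromosome 12 from 56665483 to 56694114 (GRCh37, minus strand), and its canonical transcript has 11 exons. Its level was 148 and 145 CPM in the control libraries, 121 and 122 CPM with GPNA, and 103 and 102 CPM with BenSer. The 3 groups did not overlap and followed the order control, GPNA, BenSer. GPNA differed from the control by -0.27 (interval -0.32 to -0.22) and BenSer by -0.51 (-0.56 to -0.46), the most negative value of the 9 enzymes in both comparisons. Among all genes tested, 2.65% lay lower still with BenSer and 5.57% with GPNA. CS shares 220 exon bases (7.55%) with another protein-coding gene on the same strand, so that some reads could belong to either.

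IDH3A encodes the catalytic subunit of the NAD-dependent isocitrate dehydrogenase, which makes 2-oxoglutarate and NADH. It lies on chromosome 15 from 78441704 to 78464287 (plus strand, 11 exons). Levels were 20.5 and 18.5 CPM in untreated cells, 16.9 and 17.4 CPM with GPNA, and 14.7 and 13.7 CPM with BenSer. The groups did not overlap, although the control libraries themselves stood 10.2% apart. The difference was -0.18 with GPNA (-0.31 to -0.05) and -0.43 with BenSer (-0.56 to -0.30). Without library 1 of the control the GPNA value was -0.11 and its interval included 0. Over 63.9% of its exon bases IDH3A faces ACSBG1 on the opposite strand, and the strand setting of the read counting is not given in the sources used here. ACSBG1 itself was low, at 0.497 CPM in untreated cells, 0.293 CPM after GPNA and 0.219 CPM after BenSer.

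IDH2, on chromosome 15 from 90626277 to 90645700 (minus strand, 11 exons), encodes the NADP-dependent mitochondrial isocitrate dehydrogenase, which can run in both directions between isocitrate and 2-oxoglutarate. Its 2 control libraries had 34.0 and 33.8 CPM, those with GPNA 31.4 and 32.5 CPM, and those with BenSer 29.7 and 28.5 CPM. Although the groups kept the order control, GPNA, BenSer without overlap, the steps between them were small. The GPNA difference of -0.08 had an interval that included 0 (-0.18 to 0.02), and the BenSer difference was -0.21 (-0.31 to -0.12).

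OGDH encodes the decarboxylating subunit of the 2-oxoglutarate dehydrogenase complex, the step at which carbon from glutamine is first oxidised within the cycle. It lies on chromosome 7 from 44646226 to 44748665 (plus strand), with 23 exons. The control stood at 121 and 117 CPM, GPNA at 107 and 108 CPM, and BenSer at 92.1 and 90.3 CPM, with no overlap between groups. OGDH was lower by 9.69% with GPNA and by 23.6% with BenSer. On the log2 scale these differences were -0.15 (-0.20 to -0.09) and -0.38 (-0.44 to -0.33).

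Succinyl-CoA synthetase, which makes a nucleoside triphosphate directly, pairs the alpha subunit encoded by SUCLG1 with a GTP-forming beta subunit (SUCLG2) or an ATP-forming one (SUCLA2). SUCLG1 (chromosome 2, 84650652 to 84686404, minus strand, 9 exons) stood at 51.6 and 53.6 CPM in untreated cells, 47.2 and 48.4 CPM with GPNA, and 42.5 and 43.5 CPM with BenSer. Its differences were -0.13 (-0.21 to -0.05) with GPNA and -0.28 (-0.36 to -0.21) with BenSer.

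SUCLG2, on chromosome 3 from 67425143 to 67705036 (minus strand, 11 exons), was the 1 enzyme of the 9 with a GPNA value above that of the control. Its libraries had 35.7 and 33.1 CPM in untreated cells, 36.4 and 35.6 CPM with GPNA, and 28.7 and 27.3 CPM with BenSer. The control and GPNA libraries overlapped, and the difference of 0.06 had an interval that included 0 (-0.03 to 0.16). It was 0.01 without library 2 of the control and 0.12 without library 1 of the control. With BenSer both libraries lay below both of the control, at a difference of -0.29 (-0.38 to -0.19).

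SUCLA2, on chromosome 13 from 48516791 to 48575409 (minus strand, 11 exons), had 20.1 and 19.4 CPM in untreated cells, 18.8 and 17.6 CPM with GPNA, and 17.3 and 16.8 CPM with BenSer. It had the smallest BenSer difference of the 9, at -0.20 (-0.32 to -0.08). Its GPNA difference was -0.11 (-0.24 to 0.01), and leaving out a library moved it from -0.16 with an interval below 0 (without library 1 of GPNA) to -0.07 (without library 2 of GPNA).

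FH encodes fumarase, which hydrates fumarate to malate and is known as a tumour suppressor in kidney. It lies on chromosome 1 from 241660903 to 241683055 (minus strand, 10 exons). Levels of 73.6 and 74.4 CPM in the control compared with 68.9 and 68.6 CPM with GPNA and with 52.9 and 54.7 CPM with BenSer. The wide step lay between GPNA and BenSer. Its difference with BenSer was -0.45 (-0.52 to -0.38), second to CS, whereas with GPNA it was -0.10 (-0.17 to -0.04). The GPNA interval included 0 when libraries were scaled by TMM or by DESeq2 size factors.

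MDH2, the mitochondrial malate dehydrogenase that closes the cycle, lies on chromosome 7 from 75677424 to 75696826 (plus strand, 9 exons). It had the highest CPM of the 9, with 163 and 158 CPM in untreated cells, 144 and 150 CPM with GPNA, and 133 and 132 CPM with BenSer. The groups did not overlap. The differences were -0.13 (-0.17 to -0.08) with GPNA and -0.28 (-0.32 to -0.23) with BenSer.

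**Figure D1:**
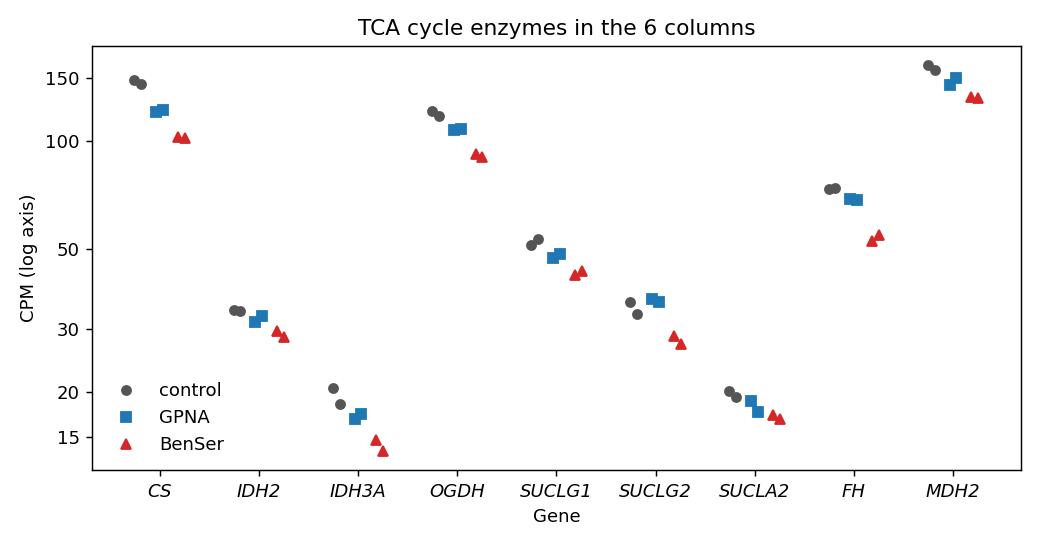
CPM (log axis) of the 9 TCA cycle enzymes in the 6 libraries, with 2 points per group for control (grey circles), GPNA (blue squares) and BenSer (red triangles). Both BenSer points lie below both control points for 9 of 9 genes, and the GPNA points of SUCLG2 overlap those of its control.

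Both BenSer libraries lay below both control libraries for 9 of 9 enzymes, against 37.5% of all genes tested and 47.7% of those with at least 10 CPM. Both GPNA libraries lay below both control libraries for 8 of 9, against 34.4% and 50.0%.

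With BenSer, 7 of the 9 enzymes were at least 1.2-fold lower (CS, FH, IDH3A, OGDH, SUCLG2, SUCLG1 and MDH2), against 15.0% of the genes tested and 19.1% of those with at least 10 CPM. With GPNA only CS was, 1 of 9, against 5.86% and 5.24%. At 1.5-fold the count was 0 of 9 in both, against 1.58% of genes lower with BenSer and 0.0637% lower with GPNA. The 1.2-fold calls depended on the processing. With BenSer, MDH2 (-0.23) and SUCLG1 (-0.24) fell short of 1.2-fold under DESeq2 size factors. SUCLG2 (-0.23) did so without library 1 of the control. With GPNA, CS (-0.23) fell short under TMM scaling. Shares of all genes at 1.2-fold under these settings are not given here.

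The median difference of the 9 enzymes was -0.29 with BenSer, where the median over all genes tested was -0.03 and that over genes with at least 10 CPM was -0.04. With GPNA it was -0.13, beside -0.03 and -0.06. Summed over the 9 enzymes, untreated cells stood at 660 CPM, GPNA-treated cells at 596 CPM and BenSer-treated cells at 511 CPM. The summed differences were -0.15 (-0.17 to -0.13) and -0.37 (-0.39 to -0.35), and reads of CS, OGDH and MDH2 weigh most in them.

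**Figure D2:**
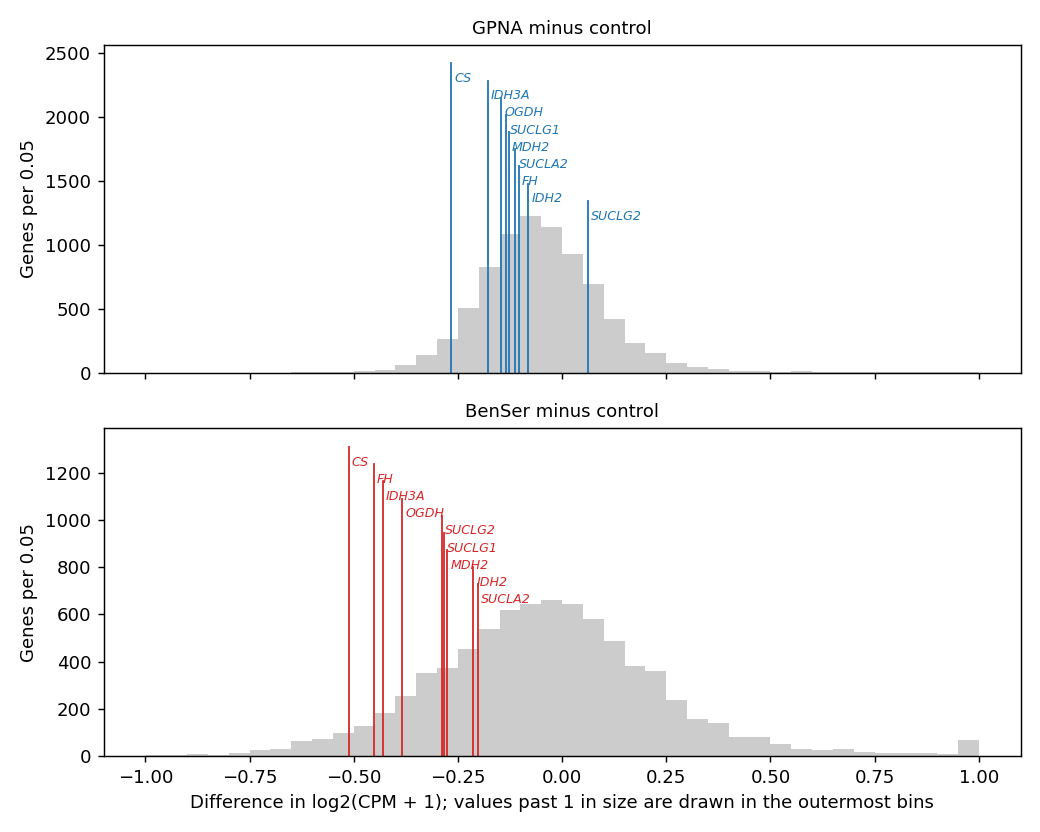
Distribution of differences in log2(CPM + 1) over genes with a mean of at least 10 CPM (grey, genes per bin of 0.05), with each TCA cycle enzyme as a labelled line, for GPNA (top) and BenSer (bottom), each minus control. With GPNA the lines run from -0.27 (CS) to 0.06 (SUCLG2), and with BenSer from -0.51 (CS) to -0.20 (SUCLA2).

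Where the 2 libraries of a group were entered separately, tests across all genes with Benjamini-Hochberg adjustment compared libraries and not treatments. With BenSer, edgeR's quasi-likelihood test called all 9 enzymes lower at an adjusted p under 0.05 (largest adjusted p = 0.0342, for SUCLA2), against 17.6% of the genes tested. The same test with the library number as a block called 9 (15.9% of genes), limma called 9 (20.9%) and DESeq2 called 7, all but IDH2 and SUCLA2 (10.2%). With GPNA, edgeR called CS, OGDH and MDH2, 3 of 9, against 8.25% of genes. The blocked test called 2 (6.42%), limma 5 (12.6%) and DESeq2 CS alone (2.84%).

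BenSer and GPNA were also set against each other without the control, at doses that differed. BenSer was lower for 8 of the 9 enzymes, against 20.7% of the 19056 genes tested and 30.5% of the 7900 genes with at least 10 CPM. Of all genes tested, 33.6% had both BenSer libraries below both GPNA libraries, as had 9 of the 9 enzymes. The differences were widest for SUCLG2, at -0.35 (-0.44 to -0.26), and FH, at -0.35 (-0.42 to -0.28). These 2 enzymes were at least 1.2-fold lower on the log2(CPM + 1) scale, against 11.0% of genes. IDH3A, 17.0% lower in CPM, fell short of that fold on this scale (-0.25). For SUCLA2 the interval included 0 (-0.09, from -0.21 to 0.03), and the value was -0.14 without library 2 of GPNA and -0.04 without library 1 of GPNA. The median of the 9 was -0.24, beside -0.01 over all genes tested. IDH2 differed by -0.13, a call that ended when library 2 of either group was left out. At 1.5-fold the count was 0 of 9, against 0.813% of genes. Of the tests with separate libraries, edgeR called 8 of 9 enzymes lower (15.9% of genes), edgeR with the block 8 (15.6%), limma 8 (16.4%) and DESeq2 5 (8.22%).

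**Figure D3:**
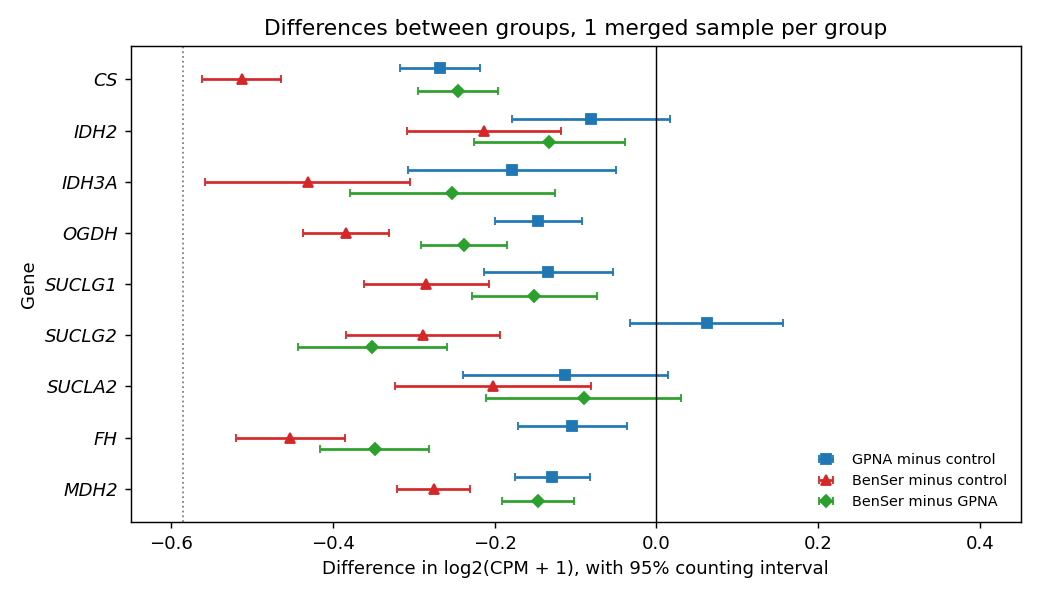
Differences in log2(CPM + 1) of the 9 TCA cycle enzymes with 95% counting intervals, for GPNA minus control (blue squares), BenSer minus control (red triangles) and BenSer minus GPNA (green diamonds). The solid line marks 0 and the dotted line a 1.5-fold lower value, which none of the 9 enzymes reached in any of the 3 comparisons.

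Levels of different genes were compared per length, as CPM per kilobase of the canonical transcript. In the control MDH2 stood highest at 73.9, followed by CS at 50.3, SUCLG1 at 41.4, FH at 41.3, OGDH at 28.4, SUCLG2 at 14.6, IDH2 at 12.7, SUCLA2 at 9.36 and IDH3A at 4.78 CPM per kilobase. SUCLG1 and FH overlapped between the control libraries and could not be ordered. With GPNA FH stood above SUCLG1, at 38.4 and 37.7 CPM per kilobase, and with BenSer below it, at 30.0 and 33.8. The log2 ratio of SUCLG1 to FH differed from the control by -0.03 with GPNA, where the interval included 0 (-0.14 to 0.07). With BenSer it differed by 0.17 (0.07 to 0.27). The other enzymes kept their places in all 3 groups. The IDH3A value is per all of its exon bases, 63.9% of which face ACSBG1, and whether reads were lost there was not tested.

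Ratios between subunits, taken from the reads of a group summed over its libraries, do not depend on how libraries are scaled. Their intervals are normal approximations on the log scale and cover counting error only. The ratio of SUCLG2 to SUCLA2, the GTP-forming over the ATP-forming beta subunit, stood at 1.56 per length in untreated cells, at 1.78 after GPNA and at 1.48 after BenSer. On the log2 scale GPNA differed from the control by 0.18 (0.02 to 0.35), a call that ended without library 2 of GPNA (0.15) or library 2 of the control (0.16). The BenSer difference of -0.09 had an interval that included 0 (-0.24 to 0.07). The ratio of SUCLG1 to SUCLG2 differed by -0.20 (-0.33 to -0.07) with GPNA, a call that ended without library 2 of the control (-0.12), and by 0.01 (-0.12 to 0.13) with BenSer. For SUCLG1 over SUCLA2 both intervals included 0, at -0.17 to 0.14 for GPNA and -0.23 to 0.07 for BenSer.

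IDH3A was also set against the other subunits of its enzyme, IDH3B and IDH3G. With BenSer the ratio of IDH3A to IDH3G differed by -0.35 (-0.51 to -0.19) and that to IDH3B by -0.19 (-0.34 to -0.05). The second call ended without library 2 of BenSer (-0.15) or library 1 of the control (-0.14). With GPNA both intervals included 0. For OGDH over DLST and DLD, the other subunits of its complex, the BenSer differences of -0.04 (-0.14 to 0.06) and -0.00 (-0.09 to 0.08) had intervals that included 0. With GPNA the ratio of OGDH to DLST was lower, at -0.19 (-0.29 to -0.09). That of OGDH to DLD differed by -0.09, with an interval that only just excluded 0 (-0.18 to -0.0003).

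Mitochondrial enzymes were compared with their cytosolic counterparts in the same way. The ratio of IDH2 to IDH1 was lower with GPNA, at -0.32 (-0.44 to -0.19), and with BenSer, at -0.41 (-0.53 to -0.28). IDH1, the cytosolic NADP-dependent isocitrate dehydrogenase, was itself higher than the control in both comparisons. The ratio of MDH2 to MDH1 differed by -0.06 (-0.16 to 0.03) with GPNA, and by 0.08 (-0.01 to 0.17) with BenSer. The GPNA value was -0.16, with an interval below 0, without library 2 of GPNA and 0.04 without library 1 of GPNA. CS was lower relative to ACLY, which cleaves citrate in the cytosol, at -0.19 with GPNA and -0.17 with BenSer. Of the 36 pairs that the 9 enzymes form, 14 had a ratio whose interval excluded 0 with GPNA (9 without library 2 of the control). With BenSer 19 did (14 without library 1 of the control). Pairs share genes, and the share over pairs of all genes was not computed, so these counts have no background. The largest difference was that of CS over SUCLG2 with GPNA, at -0.33 (-0.44 to -0.22).

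**Figure D4:**
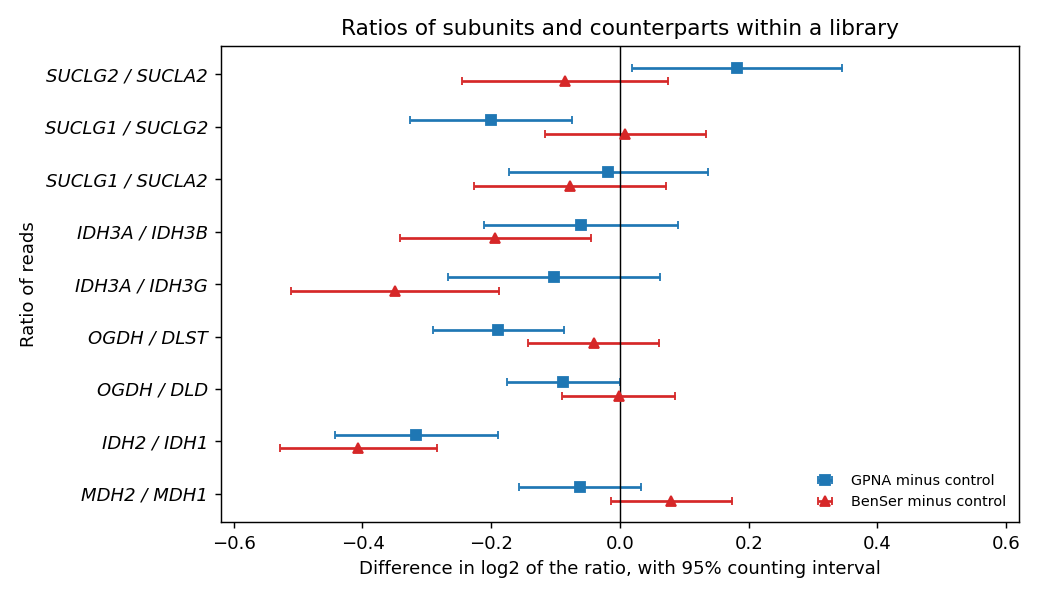
Differences in the log2 ratio of reads between subunits of an enzyme, or between mitochondrial and cytosolic counterparts, for GPNA minus control (blue squares) and BenSer minus control (red triangles), with 95% counting intervals. SUCLG2 over SUCLA2 lies above 0 with GPNA alone (0.18), and IDH2 over IDH1 lies below 0 in both (-0.32 and -0.41).

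Other enzymes of the cycle were taken as a list of 8 genes (IDH3B, IDH3G, DLST, DLD and the succinate dehydrogenase subunits SDHA to SDHD). With BenSer 7 of the 8 were lower (25.8% of all genes tested were) and 0 were higher, at a median of -0.28. Leaving out a library moved this count of lower genes between 5 (without BenSer 1) and 8 (without BenSer 2). With GPNA 3 were lower (20.1% of all genes tested were) and 1 was higher, at a median of -0.07. Leaving out a library moved the GPNA count of lower genes between 1 (without GPNA 2 or control 1) and 5 (without GPNA 1). SDHA, the subunit of succinate dehydrogenase that binds FAD, had 147 and 150 CPM in untreated cells, 162 and 165 CPM with GPNA, and 94.3 and 92.9 CPM with BenSer. It was thus higher than the control with GPNA (0.14) and lower with BenSer (-0.66), the 1 gene of this list past 1.5-fold. SDHA has near-identical pseudogene copies that could share its reads. SDHC, which anchors the same complex in the membrane, had differences of 0.04 and -0.10, both with intervals that included 0, although without library 2 of BenSer the second was lower (-0.15).

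Of the 14 genes for pyruvate entry, 6 were lower, 1 was higher and 7 had intervals that included 0 with BenSer, at a median of -0.09. With GPNA the counts were 5, 2 and 7, at a median of -0.10, with 3 lower when library 2 of the control was left out and 0 higher when library 2 of GPNA or library 1 of the control was. PDHA1, the catalytic subunit of pyruvate dehydrogenase, differed by -0.52 with BenSer and by -0.10 with GPNA. PDK4, a kinase that switches that complex off, was the 1 gene higher with BenSer. It had 1.94 and 2.21 CPM in untreated cells, 2.83 and 2.71 CPM with GPNA, and 3.20 and 4.04 CPM with BenSer, a difference of 0.59 (0.34 to 0.84). MPC1, a subunit of the mitochondrial pyruvate carrier, had a BenSer difference of 0.15 with an interval that included 0.

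For glutamine entry, 7 of 8 genes had rows, and GLUD2 was not analysed here. With BenSer 2 were lower, 2 were higher and 3 had intervals that included 0. With GPNA 2 were lower and 0 were higher. GOT2, the mitochondrial aspartate aminotransferase, differed by -0.45 with BenSer and by -0.19 with GPNA. GPT2, the mitochondrial alanine aminotransferase that turns glutamate into 2-oxoglutarate, stood at 14.6 and 13.5 CPM in untreated cells, 14.2 and 12.97 CPM with GPNA, and 20.5 and 19.7 CPM with BenSer. Its BenSer difference was 0.49 (0.36 to 0.62), on the opposite side of 0 from all 9 enzymes, and its GPNA difference was -0.04 with an interval that included 0.

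Of the 5 genes for cytosolic counterparts and citrate use, 4 were lower and 1 was higher with BenSer. With GPNA 2 were lower (0 without library 2 of the control) and 1 was higher. The higher gene was IDH1 (0.18, and 0.23 with GPNA), and MDH1 was lowest (-0.35). Among 8 of 9 genes for malate and oxaloacetate exits and carriers, 4 were lower and 2 were higher with BenSer, and 3 were lower and 1 was higher with GPNA. PCK1 was not analysed here. ME2, the mitochondrial malic enzyme that makes pyruvate from malate, differed by -0.63 with BenSer and by -0.24 with GPNA. Without library 1 of the control its GPNA value was -0.11 with an interval that included 0, and 1 gene of the list in place of 3 was lower. PCK2, the mitochondrial enzyme that makes phosphoenolpyruvate from oxaloacetate, had 8.31 and 9.19 CPM in untreated cells, 14.3 and 13.7 CPM with GPNA, and 12.3 and 12.8 CPM with BenSer. Its differences were 0.62 and 0.47, and it was the 1 gene of all the lists past 1.5-fold with GPNA.

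**Figure D5:**
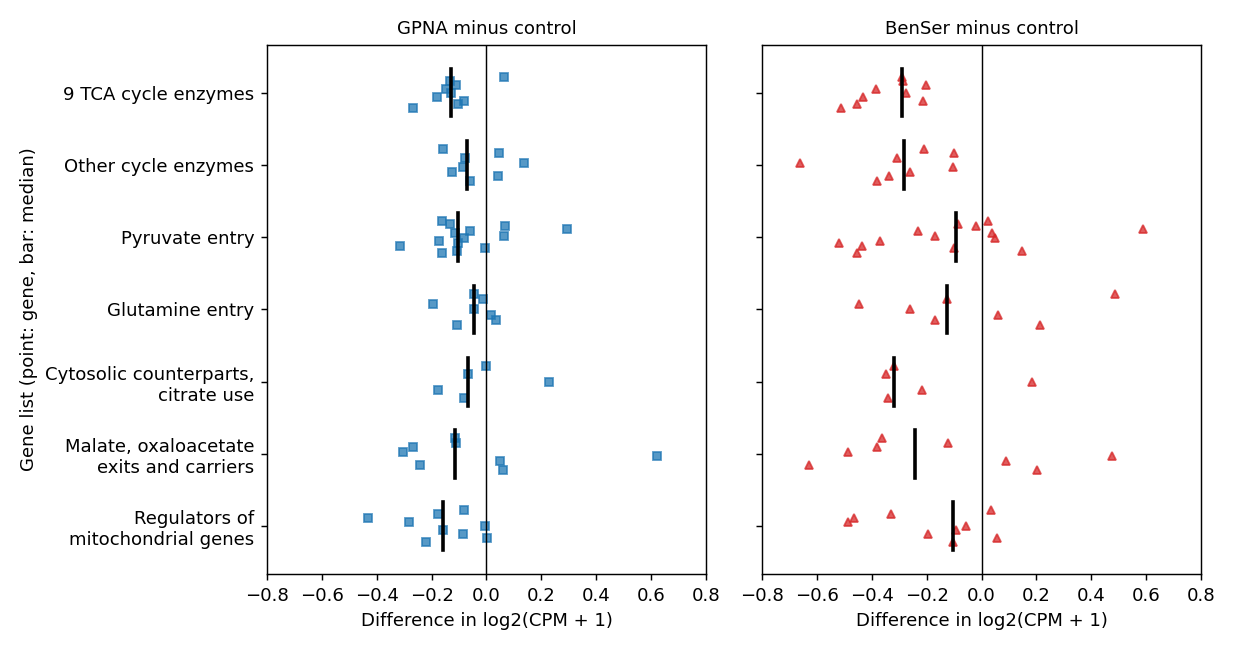
Differences in log2(CPM + 1) of single genes (points) and their medians (bars) for the 9 TCA cycle enzymes and 6 lists of related genes, with GPNA (left) and BenSer (right), each minus control. With BenSer all 9 enzymes lie below 0, as do the 8 other cycle enzymes, whereas the other lists spread to both sides of 0.

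The paralogues of OGDH, OGDHL and DHTKD1, were both lower with BenSer, OGDHL at 1.36 CPM in the control and only while library 2 of both groups was kept. DHTKD1, which acts on the related acid 2-oxoadipate in lysine breakdown, differed by -0.36 with BenSer and by -0.12 with GPNA, where the interval included 0 unless library 2 of GPNA or library 1 of the control was left out. Of 9 transcriptional regulators of mitochondrial genes with rows, 5 were lower with BenSer and 6 with GPNA, 0 were higher in either, and PPARGC1A was not analysed here. Of all genes tested, 25.8% were lower with BenSer and 20.1% with GPNA. The GPNA count was 4 without library 1 of the control and 5 without library 1 of GPNA. PPARGC1B, a coactivator of mitochondrial genes, was lower in both (-0.28 with GPNA and -0.49 with BenSer). The intervals of GABPA, a subunit of the factor GABP, included 0 in both (0.00 and 0.06).

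Among the genes of all lists, the 3 whose pair of differences lay closest to the median pair of the 9 enzymes were IDH3B, SDHB and TFAM, at distances of 0.030, 0.052 and 0.065 on the log2 scale over the 3 groups. IDH3B had differences of -0.13 with GPNA and -0.26 with BenSer. SDHB, the iron-sulphur subunit of succinate dehydrogenase, had -0.08 and -0.31. TFAM, which packages mitochondrial DNA and acts as a transcription factor on it, had -0.18 and -0.33.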

How the data were processed

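The authors prepared stranded total RNA libraries from PC-3 cells, sequenced them in paired ends, mapped trimmed reads to hg19/GRCh37.p13 with TopHat2 and counted reads per gene. Bowtie2, HTSeq 0.6.2p2 and DESeq are also named in the submitters' processing notes, and the strand setting of the counting is not given in the sources used here. The deposited values are CPM, made by the authors by dividing the reads of a gene by the library total. Multiplied by that total, 100% of the values came out as whole reads within 0.001, and the reads were so recovered. The authors' fold changes, p-values and false discovery rates were not used, and 8 value columns (6 distinct) that match no sample label were not analysed here.

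Columns 1 and 2 of a group, which carry the label names, were set against read sampling by chi-square, using genes that had 20 or more reads. They were merged as 1 sample per group, of 46305166 (control), 51251712 (GPNA) and 64121179 (BenSer) reads. Mean CPM was compared on the log2 scale after adding a pseudocount of 1. Genes averaging 5 or more reads in one of the compared groups were tested, with exact Clopper-Pearson intervals at 95%. limma 3.58.1, edgeR 4.0.16 and DESeq2 1.42.0 (R 4.3.3), with columns as libraries, were alternatives, as were other pseudocounts, filters, scalings and leaving out a column. The scripts were tested on simulated data. Positions and transcript lengths come from GENCODE 44 lifted to GRCh37.

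The 9 enzymes, the 7 gene lists (53 of 56 genes had rows), the 10 CPM subset and the tests were chosen with earlier results of these data known. From each list the text names the genes with the highest and the lowest BenSer difference among those with at least 100 reads per column in the control, every gene at least 1.5-fold different in any comparison, and the 3 genes nearest to the median pair of the enzymes. Some list and marker genes are not reported here. KLK3, PTPRC and PECAM1, meant as markers, were not analysed here.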

Additional observations from a re-analysis of the deposited data

How the results depend on the processing

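No enzyme changed sign in any comparison under the 11 other pseudocounts, filters, scalings or left-out columns. The median difference ranged from -0.15 to -0.11 with GPNA, from -0.34 to -0.30 with BenSer and from -0.25 to -0.21 for BenSer minus GPNA when a column was left out. The enzymes called lower were then 5 to 7, 9 and 7 to 8 of 9. For GPNA the count of 6 was 3 by edgeR, 2 by edgeR with the replicate block and 1 (CS) by DESeq2, while limma called 5. With BenSer the 9 calls were 9 by limma and edgeR, 9 with the replicate block and 7 by DESeq2, which did not call IDH2 and SUCLA2. For BenSer minus GPNA the 8 calls became 5 by DESeq2. The cause of these drops was not tested.

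Genes past 1.5-fold numbered 76 with GPNA, 671 with BenSer and 356 for BenSer minus GPNA. With a pseudocount of 0.1 they were 1531, 2602 and 2173, at 1.2-fold 2079, 4829 and 4080, by edgeR 319, 1489 and 1140, and with the replicate block 219, 1345 and 1071. Scaled by the total of listed genes they were 227 with GPNA and 641 for BenSer minus GPNA. Leaving out a column gave 99 to 113, 696 to 749 and 390 to 413. With BenSer 371 were higher and 300 lower, against 432 and 214 under TMM scaling and 435 and 212 under DESeq2 size factors. Scaling moved the median of all genes by at most 0.032, and that of the 9 enzymes by more. Under TMM scaling or DESeq2 size factors the median of the enzymes went from -0.29 to -0.24 with BenSer. With GPNA it went from -0.13 to -0.09. Under either scaling 9 enzymes were called lower with BenSer and 5 with GPNA. For SUCLA2 the GPNA interval ran from -0.24 to 0.01, so differences nearer to 0 were not detectable at its depth, and columns of a group give no measure of the spread between cultures. Leaving out columns for ratios and gene lists was chosen after the data had been seen. Groups share column numbers. The gaps between columns 1 and 2 correlated at 0.043, 0.064 and 0.066 between pairs of groups across 7924 genes. As these gaps are little wider than read sampling gives, the correlations cannot decide whether columns of equal number share more than the number.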
